A study of Homo sapiens with 6 samples.

Results

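The HOX genes encode homeodomain transcription factors and lie in 4 clusters, HOXA on chromosome 7, HOXB on chromosome 17, HOXC on chromosome 12 and HOXD on chromosome 2. Here they are all the probes whose platform annotation carries a HOXA, HOXB, HOXC or HOXD symbol numbered 1 to 13, in NSC and ESC cultures of 3 human embryonic stem cell lines. These were 35 probes for 29 genes, out of 48803 probes and 18665 genes with a probe. The 29 genes were 1 of the HOXA cluster (HOXA2; the other HOXA genes were not analysed here), 10 of HOXB (HOXB1 to HOXB9 and HOXB13), 9 of HOXC (HOXC4, HOXC5, HOXC6 and HOXC8 to HOXC13) and 9 of HOXD (HOXD1, HOXD3, HOXD4 and HOXD8 to HOXD13).

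Genes of the same number in different clusters are paralogs, and their order along the chromosome follows the order of their expression along the body axis. In the developing nervous system, genes of low number are used in the hindbrain, genes of middle number in the cervical and thoracic spinal cord, and genes of high number in the lumbar and sacral cord, while the forebrain and midbrain express none. In pluripotent cells the clusters are held silent by Polycomb proteins, and retinoic acid, FGF and WNT signals open them from the low-numbered end. HOX proteins bind DNA together with cofactors of the TALE class, the PBX, MEIS and PKNOX proteins. The same genes also pattern mesoderm, neural crest and limb, and fibroblasts keep a HOX pattern from the body site they came from.

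The study put RNA of 6 cultures on Illumina Human-6 beadchips, 1 array for each stage of each line, from 500 ng of RNA. The groups were 3 NSC arrays (lines H1, HSF1 and HSF6), the neural stem cell stage, and 3 ESC arrays of the same 3 lines, the undifferentiated stage. The paper describes NSC cultures in neural induction medium with bFGF. For the differentiation of HSF1 and HSF6 it refers to an earlier publication, which it says studied these lines because their NSC differentiation diverged. All 3 are established lines. The H1 cultures came from Rutgers, where no feeder cells were used, and those of HSF1 and HSF6 from UCLA. Line, site and culture procedure therefore cannot be told apart. Each line gave 1 culture per stage, so the spread between replicates is that between lines together with their cultures and arrays. These parts cannot be separated. The p-values rest on that spread, which the test used, limma, shares in part across probes.

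The deposited value of a probe is an intensity on a linear scale, brought to a common distribution over the 6 arrays, and no background had been subtracted. Background signals peaked at 127, and the limit for calling a probe above background was set at 145.3, which background alone passes with a 1-sided probability of 0.05. Each signal is compared with the signal of the same probe in other cultures only, since probes differ in brightness. Tests were run with limma on log2 values after background correction, over all 17402 probes (11012 genes) whose signals passed the limit on every array of NSC, of ESC or of both. To be called, a gene had to differ by 1.5-fold or more, with a p under 0.05 after Benjamini-Hochberg adjustment.

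The RefSeq promoter windows of 3 genes that were higher in NSC are shown first, since they set side by side the start regions of genes from 3 clusters with such a difference. Each window runs from 250 bases before the start of the gene to 50 after it on GRCh38.p14, and 12 of the 29 genes had one in the table used. Capitals mark matches on either strand to CCAAT (the CCAAT box), GGGCGG (the GC box) and TGATNNAT (a site bound by PBX and HOX proteins together); TATAAA and AGGTCA, a retinoid receptor motif, were searched too and were not found in these 3 windows. The windows lie at chr7:27102634-27102933 on the minus strand for HOXA2, at chr12:54016638-54016937 on the plus strand for HOXC4, and at chr2:176188418-176188717 on the plus strand for HOXD1.
HOXA2: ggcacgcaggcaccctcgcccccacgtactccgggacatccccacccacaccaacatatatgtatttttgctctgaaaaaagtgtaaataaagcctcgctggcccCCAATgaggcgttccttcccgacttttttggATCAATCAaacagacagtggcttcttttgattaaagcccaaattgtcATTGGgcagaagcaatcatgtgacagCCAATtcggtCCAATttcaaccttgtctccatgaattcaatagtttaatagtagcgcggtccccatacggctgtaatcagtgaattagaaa
HOXC4: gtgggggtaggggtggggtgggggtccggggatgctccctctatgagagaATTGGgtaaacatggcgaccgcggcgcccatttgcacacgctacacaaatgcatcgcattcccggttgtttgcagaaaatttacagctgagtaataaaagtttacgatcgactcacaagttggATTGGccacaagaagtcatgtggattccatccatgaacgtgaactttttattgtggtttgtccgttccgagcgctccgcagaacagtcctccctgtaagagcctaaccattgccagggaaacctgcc
HOXD1: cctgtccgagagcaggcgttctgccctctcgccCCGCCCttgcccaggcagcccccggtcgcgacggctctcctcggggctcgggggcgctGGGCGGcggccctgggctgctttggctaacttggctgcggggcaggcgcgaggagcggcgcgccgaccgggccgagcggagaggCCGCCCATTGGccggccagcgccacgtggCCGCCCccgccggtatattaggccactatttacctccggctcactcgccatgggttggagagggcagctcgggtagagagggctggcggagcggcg
The HOXA2 window held 4 CCAAT boxes, at positions -145, -67, -41 and -31 from the start, and 1 PBX-HOX motif at position -114, with a GC content of 46.3% and 11 CpG sites. The HOXC4 window, which is also the window listed for HOXC5, held 2 CCAAT boxes, a GC content of 51.7% and 15 CpG sites. HOXC5 was above the background limit in no culture. Whether the called HOXC4 probe reports a transcript that starts at this window was not tested. The HOXD1 window held 4 GC boxes and 1 CCAAT box, the CCAAT box directly beside a GC box, with a GC content of 74.3% and 36 CpG sites. Over 35116 RefSeq promoter windows of the same length, 34.6% held a CCAAT box, 45% a GC box, 7.4% the PBX-HOX motif, 11.5% TATAAA and 13.8% AGGTCA, the median GC content was 58.7% and the median number of CpG sites was 14. Of the 12 HOX genes with a window, 10 had a CCAAT box in it, 5 a GC box, 3 the PBX-HOX motif, 1 TATAAA and 0 AGGTCA. The window shared by HOXC4 and HOXC5 is counted here for each of these genes. These are matches of letters and were not tested for binding.

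More HOX genes were above background in the NSC cultures than in the ESC cultures of the same lines. Of the 29 genes, 18 were above the limit with at least 1 probe in H1 NSC (62.1%), 18 in HSF6 NSC (62.1%) and 14 in HSF1 NSC (48.3%), against 11 in H1 ESC (37.9%), 11 in HSF1 ESC (37.9%) and 9 in HSF6 ESC (31.0%). Over all genes with a probe, the share above the limit lay between 60.5% and 62.4% on every array of both stages. That near-equality follows largely from the processing, since the arrays share a common distribution and a single limit. The HOX share in H1 NSC and HSF6 NSC was thus near that of all genes, and it was below it in HSF1 NSC and in the 3 ESC cultures. The shares rest on unlike numbers of probes per gene, 35 probes for 29 HOX genes and 27578 probes for 18665 genes in all. Across cultures, 13 HOX genes were above the limit in all 3 NSC cultures and 6 in all 3 ESC cultures. At a stricter limit of 3 SD above background, the counts were 15, 14 and 15 in H1, HSF1 and HSF6 NSC, against 7, 7 and 8 in H1, HSF1 and HSF6 ESC. With 1 culture per line and stage, these counts were not tested. In bulk RNA, fewer cells of a type and less RNA per cell cannot be told apart.

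**Figure D1:**
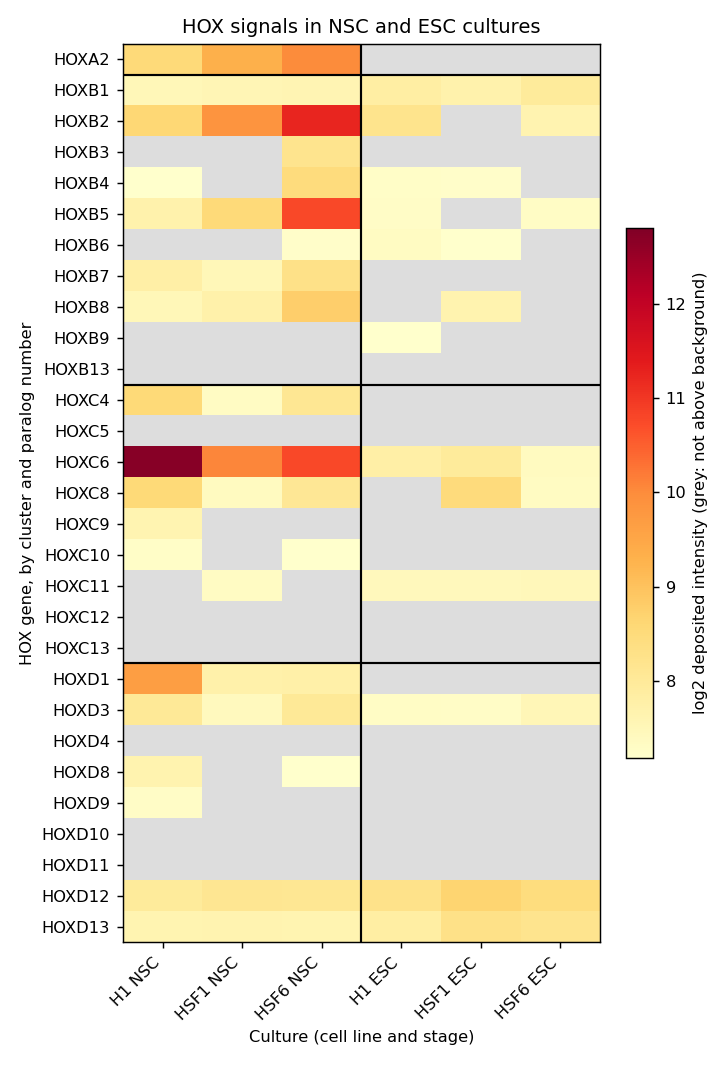
Log2 of the deposited intensity of each of the 29 HOX genes (rows, by cluster and paralog number) in the 3 NSC and the 3 ESC cultures (columns), at the probe that represents the gene; grey cells are not above the background limit of 145.3. HOXA2, HOXB7, HOXC4 and HOXD1 are above the limit in all 3 NSC cultures and in no ESC culture, and 7 genes are grey throughout.

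By cluster, HOXA2 was above the limit in each of the 3 NSC cultures and in 0 of the 3 ESC cultures. Of the 10 HOXB genes, 6, 5 and 8 were above it in H1, HSF1 and HSF6 NSC, and 6, 4 and 3 in H1, HSF1 and HSF6 ESC, so that the counts of the stages lay furthest apart in HSF6. In H1 the counts were equal but the genes were not, since HOXB7 and HOXB8 were above the limit in H1 NSC and not H1 ESC, and HOXB6 and HOXB9 in H1 ESC and not H1 NSC. Of the 9 HOXC genes, 5, 4 and 4 were above it in H1, HSF1 and HSF6 NSC, and 2, 4 and 3 in H1, HSF1 and HSF6 ESC. Of the 9 HOXD genes, 6, 4 and 5 were above it in H1, HSF1 and HSF6 NSC, and 3 in each of the ESC cultures. The HOXC count of HSF1 ESC holds HOXC4 through a further probe only, with a signal of 145.4.

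By paralog number, the NSC count exceeded the ESC count in every line at numbers 1 to 4 and 5 to 8, and in H1 alone at numbers 9 to 13. Of the 9 genes numbered 1 to 4, 7, 6 and 8 were above the limit in H1, HSF1 and HSF6 NSC, and 4, 4 and 3 in H1, HSF1 and HSF6 ESC. Of the 8 genes numbered 5 to 8, 6, 5 and 7 were above it in H1, HSF1 and HSF6 NSC, and 3, 4 and 3 in H1, HSF1 and HSF6 ESC. Of the 12 genes numbered 9 to 13, 5, 3 and 3 were above it in H1, HSF1 and HSF6 NSC, and 4, 3 and 3 in H1, HSF1 and HSF6 ESC. Among those 12, HOXC9, HOXC10 and HOXD9 were above it in NSC cultures alone and HOXB9 in an ESC culture alone, and 5 were above it nowhere. These differences along the clusters are a description of the counts and were not tested.

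Above the limit in at least 1 NSC culture and in no ESC culture were 8 genes, HOXA2, HOXB3, HOXB7, HOXC9, HOXC10, HOXD1, HOXD8 and HOXD9, and 1 gene, HOXB9, was above it in an ESC culture alone (H1 ESC, signal 146.4). The 7 genes HOXB13, HOXC5, HOXC12, HOXC13, HOXD4, HOXD10 and HOXD11 were above it nowhere. Several of the other signals lie close to the limit, such as those of HOXC10, which were 152.6, 135.6 and 146.5 in H1, HSF1 and HSF6 NSC and 126.8, 126.5 and 135.4 in H1, HSF1 and HSF6 ESC.

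Of the 29 genes, 14 had a probe that entered the test and 15 did not. Of the 14, 7 were called higher in NSC, HOXA2, HOXB2, HOXB5, HOXB7, HOXC4, HOXC6 and HOXD1, and 0 were called lower. The background was 11.4% of all tested genes called higher and 12.4% called lower. Of the 14, 8 entered the test through their NSC signals alone (HOXA2, HOXB2, HOXB5, HOXB7, HOXB8, HOXC4, HOXC8 and HOXD1), among them 6 of the 7 called genes, 1 through ESC alone (HOXC11) and 5 through both stages, of which HOXC6 was called. A gene that enters through NSC alone is one whose NSC signals are high, so the count is no measure of the clusters as a whole. With every probe tested and no limit on dim signals, 3 of the 29 genes were called higher, HOXA2, HOXB7 and HOXC6, against 4.16% of all genes, and 0 lower, against 5.14%. At an unadjusted p under 0.05, 9 of the 14 were higher in NSC (18.7% of all tested genes) and 4 lower (21.4%). Each of the 7 called genes was higher in NSC in all 3 lines.

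HOXA2, which sets the identity of a hindbrain segment and of the hyoid arch, had signals of 369.8, 641 and 1028.4 in H1, HSF1 and HSF6 NSC, against 117.8, 114.8 and 130.9 in H1, HSF1 and HSF6 ESC. Every NSC culture was above the limit and every ESC culture below it. Since ESC signals under the limit give no level, the fold is a bound that sets the NSC mean against the limit. On the deposited signals, which still hold the background, NSC exceeded ESC at least 4.30-fold for HOXA2, and after background correction with an offset of 16 the same bound was 14.2-fold, so that its size depends on the correction (fitted log2 difference 4.43, standard error 0.45, adjusted p = 0.00189 from limma). Its further probe had 309.5, 755.9 and 983.6 in H1, HSF1 and HSF6 NSC, against 109.3, 111.8 and 118.2 in H1, HSF1 and HSF6 ESC, with bounds of 4.22-fold as deposited and 13.7-fold after correction (limma adjusted p = 0.00297). Both probes had the lowest NSC signal in H1. They ranked 65 and 62 by log2 difference among the 17402 tested probes, by fitted values, which are no bound.

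HOXC6, a gene of the lower cervical and thoracic region, had signals of 6697.7, 1074.3 and 1755.5 in H1, HSF1 and HSF6 NSC, against 220.7, 251 and 165.3 in H1, HSF1 and HSF6 ESC. It was above the limit on all 6 arrays, the stages did not overlap, and H1 NSC was far above the other NSC cultures. The log2 value was 11.09 ± 1.43 in NSC and 6.55 ± 0.71 in ESC (SD, n = 3 each), a difference of 4.54 (standard error 0.71, adjusted p = 0.0073 from limma), which ranked 57 among the tested probes. Its 3 further probes were not tested, and none followed this pattern, with signals from 118.1 to 151.8 in NSC and from 127.1 to 171.9 in ESC. Most of these further probes are annotated to the same transcript as the tested probe. Which HOXC6 transcripts each probe reports was not tested.

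HOXC4, the lowest-numbered gene of its cluster and a gene of the hindbrain and upper spinal cord, had signals of 375.3, 161.1 and 274.5 in H1, HSF1 and HSF6 NSC, against 120.8, 136.7 and 128.8 in H1, HSF1 and HSF6 ESC. HSF1 NSC was only just above the limit. NSC exceeded ESC at least 1.76-fold on deposited signals and 3.66-fold after correction (fitted log2 difference 2.33, standard error 0.57, adjusted p = 0.0283 from limma). Its further probe, annotated to another transcript, was not above the limit in any NSC culture, with signals of 124.8, 131.6 and 128.6 in H1, HSF1 and HSF6.

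In the HOXB cluster, HOXB2, a gene of the anterior hindbrain, had signals of 388.7, 917.6 and 2412.9 in H1, HSF1 and HSF6 NSC, against 296.7, 128 and 198.2 in H1, HSF1 and HSF6 ESC. The stages did not overlap, and H1 NSC stood closest to the ESC cultures, of which H1 and HSF6 were above the limit. The log2 value was 9.65 ± 1.53 in NSC and 6.21 ± 1.46 in ESC (SD, n = 3 each), a difference of 3.44 (standard error 0.92, adjusted p = 0.0365 from limma). Within the lines the log2 difference was 0.58 in H1 and 4.73 in HSF6, and it was above that of HSF6 in HSF1. The HSF1 difference is a fitted value and no bound, since HSF1 ESC was not above the limit.

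HOXB5, used in the hindbrain, the spinal cord and the neural crest of the gut, had signals of 207.5, 371.2 and 1757.5 in H1, HSF1 and HSF6 NSC, against 154.7, 134.1 and 157.9 in H1, HSF1 and HSF6 ESC. The order of the NSC cultures was that of HOXB2, with HSF6 highest and H1 lowest, and the ESC signals lay at or near the limit. The log2 value was 8.43 ± 2.08 in NSC and 5.26 ± 0.40 in ESC (SD, n = 3 each), a difference of 3.17 (standard error 0.92, adjusted p = 0.0473 from limma). By line the difference came to 1.14 (H1), 3.22 (HSF1) and 5.14 (HSF6). The HSF1 difference is a fitted value and no bound, as HSF1 ESC was not above the limit.

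HOXB7, a gene of the cervical and thoracic region, had signals of 219.5, 180.8 and 314.6 in H1, HSF1 and HSF6 NSC, against 138.5, 122.3 and 123 in H1, HSF1 and HSF6 ESC. All ESC cultures were below the limit and all NSC cultures above it, and NSC exceeded ESC at least 1.60-fold on deposited signals and 3.27-fold after correction (fitted log2 difference 2.17, standard error 0.41, adjusted p = 0.0123 from limma). Its spread between NSC cultures was below that of HOXB2 and HOXB5, with an SD of 0.78 on the log2 scale.

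HOXD1, which is expressed in somites and in sensory neurons, had signals of 802.8, 211.6 and 218.8 in H1, HSF1 and HSF6 NSC, against 132.1, 115.8 and 118.9 in H1, HSF1 and HSF6 ESC. H1 NSC was high, and the HSF cultures were close to each other and above all ESC cultures. NSC exceeded ESC at least 2.30-fold on deposited signals and 5.55-fold after correction (fitted log2 difference 3.05, standard error 0.71, adjusted p = 0.0237 from limma). Fitted differences within lines were 4.69 in H1, 2.20 in HSF1 and 2.26 in HSF6; as no ESC signal was above the limit, these are no bounds.

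**Figure D2:**
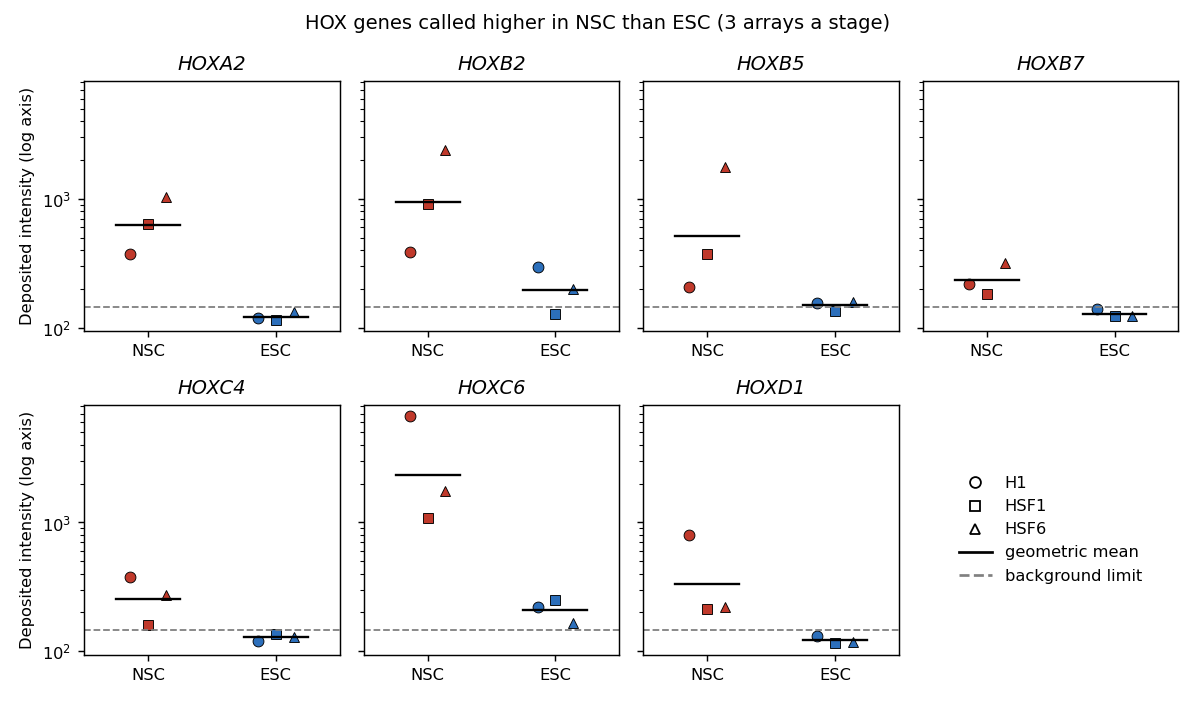
Deposited intensity (log axis) of the 7 HOX genes called higher in NSC, with 1 point per culture (circle H1, square HSF1, triangle HSF6), the geometric mean of each stage as a bar and the background limit of 145.3 as a dashed line. In each panel the NSC points lie above the ESC points; H1 is the highest NSC culture for HOXC4, HOXC6 and HOXD1 and the lowest for HOXA2, HOXB2 and HOXB5.

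How well these calls held differed between the genes. Over 16 alternative settings and left-out arrays, HOXA2 was called in 15, HOXC6 in 14, HOXB7 in 13, HOXB2 and HOXD1 in 7 each, HOXC4 in 6 and HOXB5 in 5. Leaving out any 1 of the 3 ESC arrays ended the calls of HOXB5, HOXC4 and HOXD1, with adjusted p between 0.0648 and 0.133 from limma. HOXB2 was lost without HSF1 ESC (0.103), HSF6 ESC (0.0881), HSF1 NSC (0.0874) or HSF6 NSC (0.102), HOXB5 also without HSF1 NSC (0.0891) or HSF6 NSC (0.0546), and HOXC4 also without HSF6 NSC (0.0915).

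Of the 7 tested genes that were not called, 3 had positive and 4 negative differences. HOXB8, a gene of the thoracic cord, had signals of 181.4, 211.1 and 437.1 in H1, HSF1 and HSF6 NSC, against 126.2, 200.1 and 135.3 in H1, HSF1 and HSF6 ESC, so that the stages overlapped (log2 difference 1.73, standard error 0.69, adjusted p = 0.111 from limma). HOXD3, a hindbrain paralog, had 262.3, 171.7 and 259.5 in H1, HSF1 and HSF6 NSC, against 157.3, 154.7 and 182.7 in H1, HSF1 and HSF6 ESC (log2 difference 1.08, standard error 0.42, adjusted p = 0.105). HSF1 NSC lay below HSF6 ESC here. Without HSF1 NSC, HOXD3 passed the threshold (log2 difference 1.52, adjusted p = 0.0384 from limma).

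HOXC8, a gene of the brachial and thoracic region, had signals of 375.3, 164.4 and 267.4 in H1, HSF1 and HSF6 NSC, against 139.2, 358.4 and 162.8 in H1, HSF1 and HSF6 ESC. HSF1 ESC was the second highest of the 6 cultures, and the stages overlapped (log2 difference 0.83, standard error 0.86, adjusted p = 0.509 from limma). HSF1 ESC was also the highest ESC culture for HOXB8.

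The 4 tested genes with lower NSC signals were HOXB1, HOXC11, HOXD12 and HOXD13, of which 3 belong to the posterior end of their clusters. In each of them all NSC signals lay below all ESC signals, which was so for 24.9% of all tested genes. All NSC signals lay above all ESC signals for 7 of the 14 HOX genes and for 20.8% of all tested genes. These 7 are the called genes, of which all but HOXC6 entered the test through NSC alone. HOXC11 entered it through ESC alone, so neither count is a measure of the clusters as a whole. HOXD13, a gene of the digits and the hind end of the body, had 194.4, 199.6 and 196.4 in H1, HSF1 and HSF6 NSC, against 228.3, 313.2 and 289.2 in H1, HSF1 and HSF6 ESC (log2 difference -0.92, standard error 0.28, adjusted p = 0.0528 from limma). HOXD12 had 249.7, 276.1 and 275 in H1, HSF1 and HSF6 NSC, against 303.8, 403.6 and 350.7 in H1, HSF1 and HSF6 ESC (log2 difference -0.62, standard error 0.26, adjusted p = 0.126). Both genes were above the limit on all 6 arrays, and their NSC cultures were close to each other.

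HOXC11, a gene of the lumbar and sacral region, had signals of 115.1, 160.5 and 136.2 in H1, HSF1 and HSF6 NSC, against 172.3, 172.7 and 179.4 in H1, HSF1 and HSF6 ESC (log2 difference -1.01, standard error 0.34, adjusted p = 0.0673 from limma). HOXB1, which sets the identity of a single hindbrain segment, had 179.8, 185.4 and 192.7 in H1, HSF1 and HSF6 NSC, against 228.7, 208.7 and 247.7 in H1, HSF1 and HSF6 ESC (log2 difference -0.64, standard error 0.25, adjusted p = 0.101). The low-numbered HOXB1 thus differed in sign from its neighbour HOXB2. Single arrays decided the side of the threshold for HOXC11, which passed it without HSF1 NSC (log2 difference -1.34, adjusted p = 0.0385 from limma), and for HOXD13, which passed it without H1 ESC (-1.15, adjusted p = 0.0330).

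Of the 15 untested genes, HOXB3 and HOXB4, both hindbrain genes, were bright in HSF6 NSC alone. HOXB3 had signals of 134.9, 128.9 and 290.9 in H1, HSF1 and HSF6 NSC, against 130.6, 107.7 and 108.8 in H1, HSF1 and HSF6 ESC, and its further probe was below the limit in every culture. HOXB4 had 147.1, 136.5 and 354.7 in H1, HSF1 and HSF6 NSC, against 153.6, 150.8 and 133.2 in H1, HSF1 and HSF6 ESC. HOXC9, HOXD8 and HOXD9 had their highest signals in H1 NSC.

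HOXC9, a thoracic gene, had 194.6, 137 and 133.4 in H1, HSF1 and HSF6 NSC, against 107.9, 101 and 100.8 in H1, HSF1 and HSF6 ESC. HOXD8 had 200.5, 133.1 and 146.2 in H1, HSF1 and HSF6 NSC, against 121.6, 116.2 and 123.8 in H1, HSF1 and HSF6 ESC, and HOXD9 had 156.2, 138.9 and 128.2 in H1, HSF1 and HSF6 NSC, against 123.3, 122.5 and 115.1 in H1, HSF1 and HSF6 ESC. HOXB6 stayed near the limit, with 137.5, 137.4 and 150.6 in H1, HSF1 and HSF6 NSC, against 163.3, 147.1 and 141.2 in H1, HSF1 and HSF6 ESC. The remaining untested genes are HOXB9 and HOXC10, given above, and the 7 genes above the limit in no culture.

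The NSC cultures differed from each other by cluster. Of the 8 HOXB genes above the limit in an NSC culture, HOXB1 to HOXB8, all 8 had their highest NSC signal in HSF6, as did HOXA2. Of the 6 such HOXC genes, 5 had it in H1 (HOXC4, HOXC6, HOXC8, HOXC9 and HOXC10) and 1 in HSF1 (HOXC11). Of the 6 such HOXD genes, 4 had it in H1 (HOXD1, HOXD3, HOXD8 and HOXD9) and 2 in HSF1 (HOXD12 and HOXD13). Genes of a cluster share a chromosome region and a culture, so these counts are a description of 3 cultures.

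**Figure D3:**
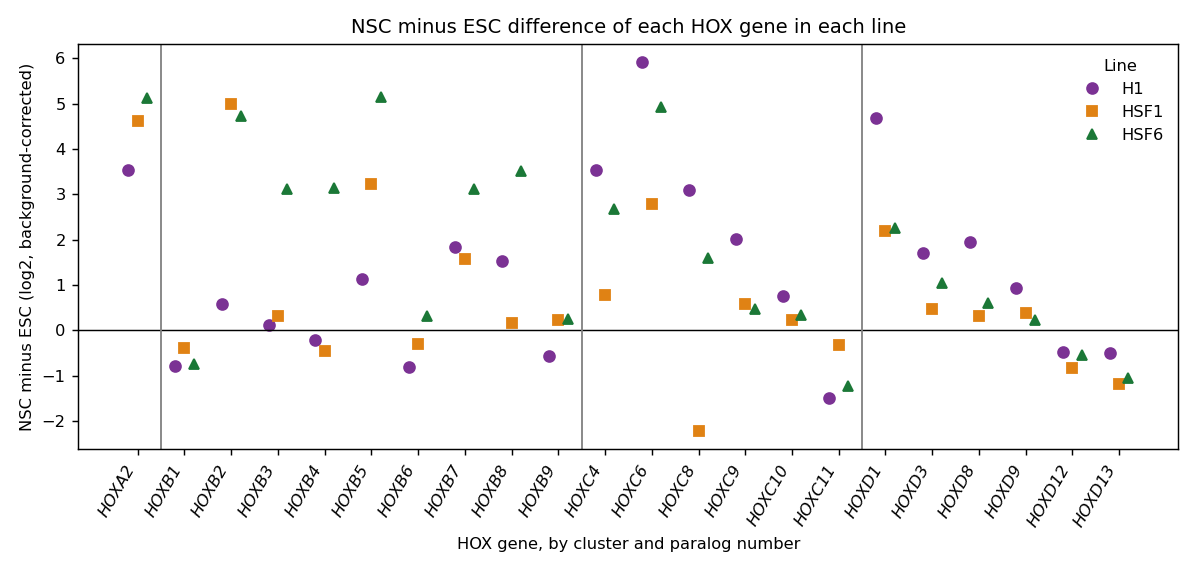
Log2 difference of NSC minus ESC within each line (background-corrected values; circle H1, square HSF1, triangle HSF6) for the 22 HOX genes above the limit in at least 1 culture, by cluster and paralog number. HSF6 lies highest for most HOXB genes, at 5.14 for HOXB5, H1 lies highest for HOXC4, HOXC6, HOXC8 and HOXD1, at 5.91 for HOXC6, and HOXC8 is at -2.22 in HSF1; where a signal is not above the limit, the difference is a fitted value and no bound.

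Whether the NSC effect differed between H1 and the HSF lines was tested in limma as the difference between the H1 effect and the mean HSF effect. No HOX gene was called (0 of 14, against 0.300% of all tested genes), and 2 of the 14 had an unadjusted p under 0.05, against 17.3% of all tested genes. The log2 effect of HOXD1 was larger in H1, by 2.45 (standard error 0.41, adjusted p = 0.0807), a fitted value that rests on ESC signals not above the limit. The effect of HOXB2 was smaller in H1, at -4.28 (standard error 1.27, adjusted p = 0.215), and that of HOXC6 larger, at 2.06 (standard error 0.91, adjusted p = 0.350). H1 has 1 array per stage, so the error is the spread between HSF1 and HSF6, and the same spread is assumed for H1. The HOXB2 value rests in part on HSF1 ESC, whose signal was not above the limit.

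The NSC cultures alone were compared by a contrast chosen after the data were seen, H1 NSC minus the mean of HSF1 NSC and HSF6 NSC. Of the 14 HOX genes 1 was called (4.09% of all tested genes), and 5 had an unadjusted p under 0.05 (22.7%). H1 NSC is 1 culture with no spread of its own, so the error is the distance between HSF1 NSC and HSF6 NSC, which is small for HOXD1 (211.6 and 218.8). The called gene was HOXD1, with a log2 value 2.74 higher in H1 NSC (standard error 0.29, limma adjusted p = 0.0143). HOXC6 differed by 2.39 (standard error 0.64, adjusted p = 0.116), HOXB5 by -2.77 (adjusted p = 0.214) and HOXB2 by -2.30 (adjusted p = 0.227). HOXA2 differed by -1.43 (adjusted p = 0.139) and on its further probe by -1.92 (adjusted p = 0.0441), so that its 2 probes fell on different sides of the threshold.

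The study's methods give duplications on chromosomes 12 and 17 for H1, where HOXC and HOXB lie. Over the tested genes of chromosome 12, the median log2 difference of H1 minus the HSF lines was -0.04 in NSC and 0.29 in ESC (579 genes), and over those of chromosome 17 it was -0.02 in NSC and 0.20 in ESC (614 genes), beside 0.02 in NSC and -0.05 in ESC over all autosomes. On chromosomes 2 and 7 these medians lay between -0.09 and 0.01 in both stages. The part of the duplications in the H1 values of HOXB and HOXC genes was not tested.

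Of 32 genes listed within 5 coding genes of a cluster, 25 were tested, of which 2 were called higher in NSC and 2 lower, beside 11.4% and 12.4% of all tested genes. Their median log2 difference was -0.09, beside -0.06 over all tested genes. Higher were CALCOCO1 beside HOXC (1.13, adjusted p = 0.0431 from limma) and ATF2 beside HOXD (0.96, adjusted p = 0.0368), and lower were ATP5MC1 beside HOXB (-1.06, adjusted p = 0.0207) and HNRNPA3 beside HOXD (-0.99, adjusted p = 0.0445). Of the 6 ParaHox genes listed, homeobox genes related to the HOX genes, all 6 had a probe and 0 were above the limit on all arrays of a stage.

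Of 9 listed cofactors of the TALE class, 7 were tested, of which 4 were called higher in NSC and 0 lower, beside 11.4% and 12.4% of all tested genes. MEIS1 had signals of 521.6, 1449.5 and 2148.7 in H1, HSF1 and HSF6 NSC, against 159.7, 224 and 169.9 in H1, HSF1 and HSF6 ESC (log2 difference 3.93, standard error 0.61, adjusted p = 0.0073 from limma). PKNOX2 differed by 2.75 (limma adjusted p = 0.00716) and PBX4 by 1.91 (limma adjusted p = 0.00733). MEIS2 was at least 1.42-fold higher as deposited and 2.60-fold after correction (limma adjusted p = 0.00981). PKNOX2, PBX4 and MEIS2 entered the test through their NSC signals alone, and the list was chosen with earlier results of these data known. The count is therefore no measure of the cofactors as a whole.

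Of 23 listed regulators of the clusters, such as Polycomb and Trithorax proteins, 16 were tested, of which 1 was called higher and 1 lower, beside the same shares of all tested genes. BMI1, a subunit of Polycomb repressive complex 1, was higher in NSC (log2 difference 2.10, standard error 0.48, adjusted p = 0.0230 from limma), and JARID2, which recruits Polycomb repressive complex 2, was lower (-2.18, standard error 0.32, adjusted p = 0.00581). EZH2, the methyltransferase of that complex, differed by 0.37 (adjusted p = 0.346).

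Retinoic acid genes were listed as well, since the vitamin A derivative acts on the clusters through receptors that bind near them. Of 19, 14 were tested, of which 6 were called higher and 1 lower, beside 11.4% and 12.4% of all tested genes. The 6 include MEIS2, which is also counted among the cofactors. MEIS2, NR2F1, CYP26B1 and RARB entered the test through their NSC signals alone, and this list too was chosen with earlier results known. Its count is likewise no measure of the list as a whole. NR2F1, a nuclear receptor induced by retinoic acid, was at least 15.8-fold higher in NSC as deposited and 62.2-fold after correction (limma adjusted p = 4.4e-05), and CYP26B1, which degrades retinoic acid, at least 1.95-fold and 4.82-fold (adjusted p = 0.00236). The receptors RARB (1.99, adjusted p = 0.0142), RXRA (1.67, adjusted p = 0.0451) and RARA (1.55, adjusted p = 0.0301) were higher by their log2 differences, and DHRS3, a retinal reductase, was lower (-1.89, adjusted p = 0.0171). ALDH1A2, the enzyme that makes retinoic acid in the trunk, had signals of 27721.9, 195 and 168.3 in H1, HSF1 and HSF6 NSC, against 158.8, 127.2 and 149.5 in H1, HSF1 and HSF6 ESC, so that it was bright in 1 culture of the 6. CYP26A1 was not called (log2 difference -2.47, limma adjusted p = 0.245), with signals of 140.7, 2656.3 and 414.6 in H1, HSF1 and HSF6 NSC.

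Of 16 listed forebrain and midbrain genes, 15 had a probe, of which 6, 8 and 3 were above the limit in H1, HSF1 and HSF6 NSC, against 4, 3 and 3 in H1, HSF1 and HSF6 ESC. Of the 10 above it in an NSC culture, 7 had their highest NSC signal in HSF1, 2 in H1 (SIX6 and HESX1) and 1 in HSF6. OTX2, LHX2 and EMX2 are given by signal, chosen after their values were seen. OTX2 had signals of 163.8, 6235.5 and 165.1 in H1, HSF1 and HSF6 NSC, LHX2 had 441.8, 3155.6 and 135.8, and EMX2 had 143.5, 1264.8 and 135.4, in the same order of lines. In ESC, OTX2, a gene of pluripotent cells too, had 1248.3, 764.8 and 2631.9 in H1, HSF1 and HSF6, and LHX2 and EMX2 were not above the limit. Of 11 listed hindbrain and spinal cord genes, 8 had a probe, of which 4, 7 and 5 were above the limit in H1, HSF1 and HSF6 NSC, against 4, 5 and 4 in H1, HSF1 and HSF6 ESC. Of the 7 above it in an NSC culture, 4 had their highest NSC signal in HSF1, among them IRX3 with 316.6, 3835.2 and 2659.3 in H1, HSF1 and HSF6 NSC, and 3 in HSF6. HSF1 NSC was thus the NSC culture with the most genes above the limit in both lists. Of the anterior list 2 genes were tested and of the posterior list 4, and 0 of either were called.

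The labelled stages were checked with marker lists, given as the summed background-corrected signal of each list. Of 8 pluripotency markers, 7 had a probe, with 334.3, 553.8 and 1038 in H1, HSF1 and HSF6 NSC and from 34560 to 49850 in ESC. Above the limit were 7, 6 and 7 of them in H1, HSF1 and HSF6 ESC. NANOG was the marker not above it in HSF1 ESC, with 1942.9, 124 and 887.6 in H1, HSF1 and HSF6 ESC. The 10 neural stem cell markers gave 35770, 52420 and 52930 in H1, HSF1 and HSF6 NSC and from 9246 to 21290 in ESC, with 6, 9 and 9 of the 10 above the limit in H1, HSF1 and HSF6 NSC. Most of the NSC sum came from VIM, which mesenchyme expresses too: without it, an alternative chosen after the data were seen, the sums were 4816, 19880 and 15990 in H1, HSF1 and HSF6 NSC, against 6082, 5001 and 7034 in H1, HSF1 and HSF6 ESC, so that H1 NSC lay below H1 ESC. That order in H1 rests largely on SOX2, which ESC express too, with 790.3 in H1 NSC against 4586.2 in H1 ESC. SOX9 ran the other way, with 2907.3 in H1 NSC against 287.6 in H1 ESC. PAX6 and HES5, defining markers of neural stem cells, were not above the limit in H1 NSC, and SOX1 was not above it in any NSC culture.

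Mesenchyme markers, whose cells also express HOX genes, were high in every NSC culture. Of 9 listed, 8 were tested and 7 were called higher in NSC, and all 8 were above the limit in each NSC culture, against 6, 4 and 7 in H1, HSF1 and HSF6 ESC. Their summed corrected signal was 122900, 35740 and 54710 in H1, HSF1 and HSF6 NSC, against 1797, 1330 and 3604 in H1, HSF1 and HSF6 ESC. H1 NSC had the highest sum, with DCN at 37356.1 in H1 NSC, against 2658.1 in HSF1 NSC and 4604.9 in HSF6 NSC. The markers did not all follow this order: 5 of the 8 were highest in H1 NSC, 1 in HSF1 NSC and 2 in HSF6 NSC. Among the called markers, PRRX1, DCN, COL3A1 and POSTN entered the test through their NSC signals alone. Neuron markers summed to 3315, 15380 and 18270 in H1, HSF1 and HSF6 NSC, against 2089 to 2502 in ESC.

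Of 6 neural crest markers, 5 had a probe, and their sum was 580.3, 704 and 696.1 in H1, HSF1 and HSF6 NSC. In ESC it was 114.7, 66.83 and 275.3 in the same order of lines. Most of the NSC sum came from TFAP2A, with signals of 667.5, 779.9 and 716.7 in H1, HSF1 and HSF6 NSC. Above the limit were 2 markers in each NSC culture, against 3, 2 and 1 in H1, HSF1 and HSF6 ESC. SOX10 and FOXD3, which define early neural crest, were not above the limit in any NSC culture. The 6 mesoderm markers summed to 999.5, 67.69 and 52.65 in H1, HSF1 and HSF6 NSC, against 1140, 105.5 and 972.2 in H1, HSF1 and HSF6 ESC, and the sum of H1 NSC came from MEOX1, a gene of somites, with a signal of 1085. The 4 endoderm markers summed to between 30.21 and 39.69 in NSC and between 949.6 and 1340 in ESC. The part that cells other than neural stem cells had in the HOX signals was not tested.

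**Figure D4:**
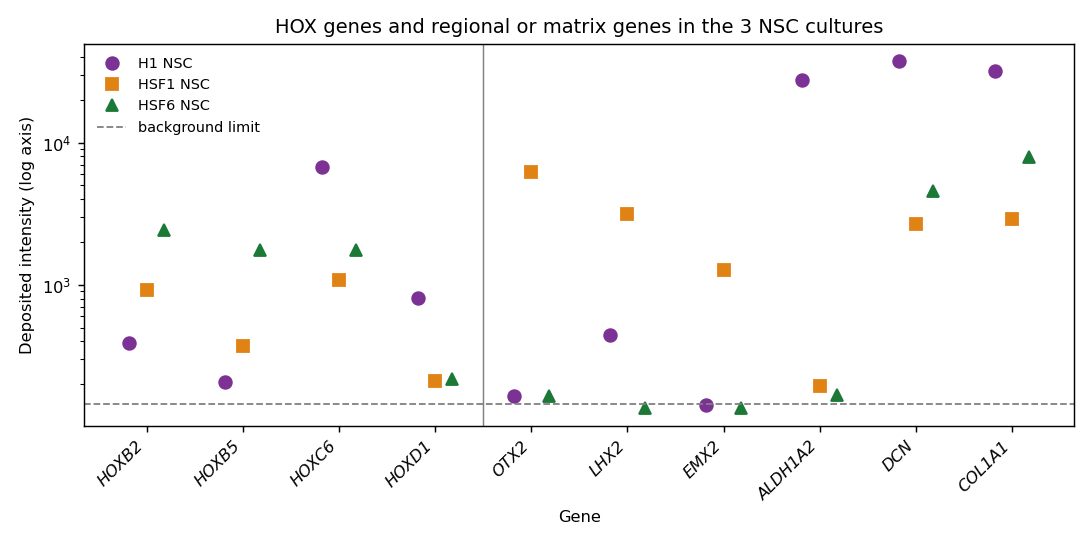
Deposited intensity (log axis) of 4 HOX genes, 3 forebrain and midbrain genes, ALDH1A2 and 2 matrix genes of mesenchyme in the 3 NSC cultures (circle H1, square HSF1, triangle HSF6), with the background limit of 145.3 as a dashed line; points are to be compared within a gene. HSF6 NSC is highest for HOXB2 and HOXB5, H1 NSC is highest for HOXC6, HOXD1, ALDH1A2, DCN and COL1A1, and HSF1 NSC is highest for OTX2, LHX2 and EMX2.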

How the data were processed

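RNA of 3 NSC and 3 ESC cultures was measured on 6 Illumina Human-6 arrays, grouped by the stage and line given in the sample labels. The deposited values are intensities per probe, which the authors made in BeadStudio (version not given), per the submitters' processing notes; the paper names GeneSpring and R/Bioconductor for later steps. The normalization is not given in the sources used here, but after sorting, signals of different arrays were within 0.407 of each other, with a median of 137 and a lowest value of 82.3. A second table, of 24 columns of unnormalized signals, bead numbers, errors and detection p-values named by beadchip position, could not be paired with samples and was left out.

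Background was taken to centre on the mode of signals below 300.0 (127), with the spread below that mode as its SD (11.2). Signals were corrected with the normexp model of limma at these values, 16 was added, and log2 was taken. A probe was tested if its signal passed the limit (mean plus 1.64 SD) on all 3 arrays of a stage. Where a stage lay wholly under the limit, folds are bounds against it, as deposited and after correction (the bound as deposited was added after the data were seen). Probes were named through the platform annotation, with symbols updated by gene identifier (27578 with 1 symbol, 13 with several, 21212 with none). For genes with several probes, the tested one with the highest mean signal stands for the gene, or the brightest untested one where none was tested.

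Stages were compared by limma's lmFit and eBayes, with limma 3.58.1 in R 4.3.3 with the data.table package, version 1.17.8, without covariates. The script was tested on simulated data. Pairing comes from the shared line: a line's deviations from the 2 stage means had a correlation of 0.17 (H1), 0.22 (HSF1) and 0.10 (HSF6). Every HOX gene with a probe is named or counted, and of other lists the called members with the largest change, at most 4 a list; ALDH1A2, OTX2, LHX2, EMX2, EZH2, DCN, COL1A1, MEOX1 and further genes were named after their values were seen. The members and lists were chosen with earlier results of these data known. Alternatives were other offsets, corrections, detection limits and probes, the line as block, the methods' t-test, and arrays left out. The number of arrays limits the precision.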

Additional observations from a re-analysis of the deposited data

Results flagged for a closer look

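HOXC8 moved in opposite directions in different lines. Its log2 difference of NSC minus ESC was 3.10 in H1 and 1.60 in HSF6 but -2.22 in HSF1. The rule, at least 1.5-fold up in one line and at least 1.5-fold down in another, was chosen after the data were seen, and the difference between the lines was not tested, since each line has 1 array per stage. The negative value rests on HSF1 ESC, whose signal was 358.4, against 164.4 in HSF1 NSC. The H1 difference is a fitted value and no bound, since H1 ESC, at 139.2, was not above the limit.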

How the results depend on the processing

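The count of HOX genes higher in NSC, 7 in the comparison as reported, was 4 with an offset of 50, 3 without background correction, 3 without the detection limit and 1 with the methods' t-test at a 5% false discovery rate and 1.5-fold (HOXA2). It ranged between 1 and 7 when single arrays or both arrays of a line were left out, at 2 where both HSF1 arrays and at 1 where both HSF6 arrays were missing. The count lower in NSC, 0 as reported, was 1 with the limit at 3 SD (HOXD13, -0.92, adjusted p = 0.0498 from limma) and 0 to 1 with arrays left out. With the line as a replicate block, the same 7 genes were called and 0 were lower. Counts of HOX genes above background were 7 in H1 ESC and 7 in HSF1 ESC at a limit of 3 SD. The count with a different NSC effect in H1 was 0 under each of the 5 alternatives run for it. HOXC8 turned to -0.31 without both H1 arrays (adjusted p = 0.801 from limma), and no other tested HOX gene turned its direction in the 16 alternatives. HOXA2 was lost without both HSF1 arrays (0.0521), HOXC6 without both HSF6 arrays (0.0742) and with the methods' t-test (0.0624), and HOXB7 in these 3 settings (0.0667, 0.0973 and 0.0678). Signals near the background limit are the least certain, since a small shift of the limit changes which genes count. The cause of the losses was not tested.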
